A study of Mus musculus with 15 samples.

Results

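NRF2 target genes of the oxidative stress response were described in mouse livers that lack a JNK kinase in every cell, with or without NEMO in hepatocytes. The set holds 10 genes: Nqo1, Hmox1, Gclc, Gclm, Srxn1, Txnrd1, Osgin1, Ephx1, G6pdx and Pgd. Of these, 9 were found by symbol among the 19938 genes that a probe set with 1 gene symbol could stand for, and each of the 9 had 1 such probe set. The expression of G6pdx was not analysed here. All 9 passed a filter on low values, a level of 3.69 or more (the 40th percentile) on 3 or more arrays, which 13873 of all genes passed.

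Whole livers of 15 C57BL/6 mice, 8 weeks old and labelled male, were each hybridised to an Affymetrix array of whole transcripts, 3 mice for each of 5 genotypes. NEMO/Jnk1 DKO mice lacked Jnk1 in all cells (Jnk1-/-) and NEMO in hepatocytes only, through loxP sites around the NEMO gene and a Cre driven by the albumin promoter, so that the other liver cells kept NEMO. NEMO/Jnk2 DKO mice carried the same hepatocyte deletion on a Jnk2-/- background. Jnk1 KO and Jnk2 KO mice were the global single knockouts, and the labels do not say whether they carried the floxed NEMO gene. WT mice carried the floxed, intact NEMO gene. No group lacked NEMO alone. Values are deposited log2 expression levels, so that a difference of 1 is a 2-fold change, and levels of different genes cannot be set against each other. A gene passed the test at a Benjamini-Hochberg adjusted p under 0.05 over all 19938 genes in limma, and SE is the standard error of a difference in that fit. In such bulk samples, fewer cells of a type and less RNA per cell cannot be told apart.

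NRF2, encoded by Nfe2l2, is a transcription factor that is held by KEAP1 and marked for destruction in resting cells. Electrophiles and oxidants modify cysteines of KEAP1, and NRF2 then reaches the nucleus, pairs with a small MAF protein and binds antioxidant response elements. Its targets make glutathione, reduce thioredoxin and peroxiredoxins, supply NADPH and clear quinones, epoxides and haem, and in the liver hepatocytes and macrophages both use them. NEMO is the regulatory subunit of the kinase that activates NF-kB, and JNK1 and JNK2 are stress-activated kinases encoded by Mapk8 and Mapk9.

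Mapk9 read 2.39 to 3.28 in the Jnk2-null groups and 7.41 to 7.67 elsewhere, and Mapk8 read 5.87 to 6.53 in the Jnk1-null groups and 6.58 to 7.03 elsewhere, with no overlap. Where those probe sets lie relative to the deleted parts was not analysed here. Ikbkg, which encodes NEMO, read 6.18 to 6.85 in the DKO livers, and Ly6d, which was high in all DKO livers (7.88 to 10.48), read 4.67 to 5.06 in WT livers. Jnk1 KO replicate 1 (Ikbkg 6.75, Ly6d 10.12) and Jnk2 KO replicate 3 (Ikbkg 6.24, Ly6d 9.70) went with the DKO livers, whereas the other 4 single-knockout livers (Ikbkg 7.03 to 7.23, Ly6d 4.76 to 5.35) went with WT. They are called the doubted arrays, and the tests of the 9 genes were run with all 15 arrays as labelled and without these 2. Because they were set aside by a pattern that separates the DKO livers from the rest, values without them are not independent of the NEMO difference. Xist and the Y-linked genes read as female in 3 arrays labelled male, Jnk1 KO replicate 1 and NEMO/Jnk1 DKO replicates 1 and 2, with Xist at 8.68 to 9.17 against at most 2.82 in the other 12. A term for this pattern was fitted as an alternative, in which, without the doubted arrays, NEMO/Jnk1 DKO rests on replicate 3 alone. On all 15 arrays the term is set by the 2 Jnk1-null groups, the only groups that hold both patterns. The only Jnk1 KO array with the female pattern is the doubted replicate 1. On all 15 arrays the term therefore cannot be told apart from what sets that array aside, and values with it are not adjusted for sex alone.

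Of the 9 genes, 6 read higher in every NEMO/Jnk1 DKO liver than in every WT liver, and 5 did so in NEMO/Jnk2 DKO. The 2 subunits of glutamate-cysteine ligase were in neither count. How many of all genes lay apart in this way was not counted. In limma 5 of 9 and 4 of 9 had an unadjusted p under 0.05 as labelled, where 16.3% and 18.9% of all genes did. As labelled, 1 of 9 genes passed between NEMO/Jnk1 DKO and WT, where 0.0652% of all genes passed, and 1 of 9 between NEMO/Jnk2 DKO and WT, where 2.63% passed. Both calls were Pgd. No WT or DKO array is doubted, and the doubted arrays enter these differences only through the spread shared by all groups. Without them 5 of 9 passed in NEMO/Jnk1 DKO (7.91% of all genes) and 4 of 9 in NEMO/Jnk2 DKO (10.6%), all of them higher. A fit to only the 6 arrays compared also gave 5 of 9 (6.49%) and 4 of 9 (9.62%). The median difference of the 9 genes was 0.45 in NEMO/Jnk1 DKO livers and 0.37 in NEMO/Jnk2 DKO, beside -0.04 for all genes in both comparisons.

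**Figure D1:**
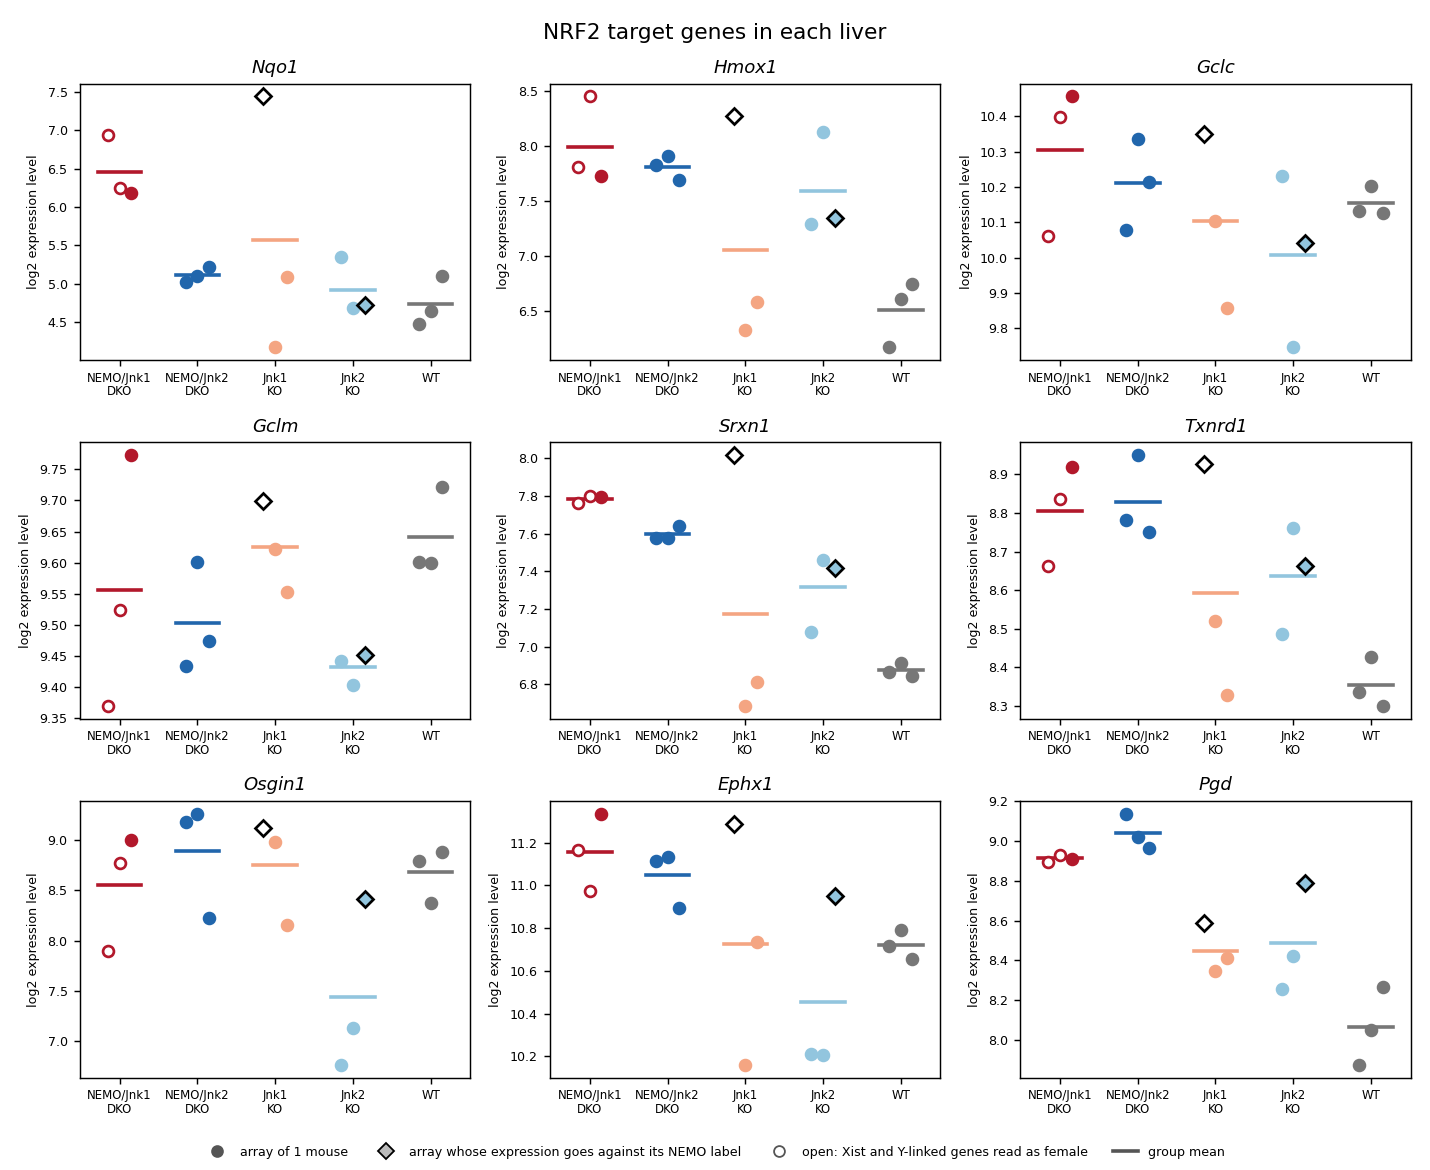
Log2 expression level of each of the 9 NRF2 target genes (vertical axes, which differ between panels) in each of the 15 livers, by group, with bars at the group means. Diamonds are the doubted arrays and open symbols those with female Xist and Y-linked levels. Srxn1 and Pgd read higher in every DKO liver than in every WT liver, Gclc and Gclm overlapped, and the diamond of Jnk1 KO stood at 7.44 for Nqo1, apart from 4.17 and 5.08 in the other 2.

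The windows around the start sites of 3 of these genes are shown because the genes behaved differently: Srxn1 rose over WT in both DKO groups, Osgin1 passed in 2 comparisons, each with Jnk2 KO on one side, and Gclm passed in none. The calls are those without the doubted arrays. Each runs from 250 bases before to 50 bases after a start site, on the plus strand of GRCm38.p6 as given by RefSeq, at chr2:152105274-152105573 for Srxn1, chr8:119436897-119437196 for Osgin1 and chr3:122245307-122245606 for Gclm. Capitals mark matches, on either strand, to the core of the antioxidant response element (TGACNNNGC) or to the AP-1 site (TGACTCA), which can overlap and do not here.
Srxn1: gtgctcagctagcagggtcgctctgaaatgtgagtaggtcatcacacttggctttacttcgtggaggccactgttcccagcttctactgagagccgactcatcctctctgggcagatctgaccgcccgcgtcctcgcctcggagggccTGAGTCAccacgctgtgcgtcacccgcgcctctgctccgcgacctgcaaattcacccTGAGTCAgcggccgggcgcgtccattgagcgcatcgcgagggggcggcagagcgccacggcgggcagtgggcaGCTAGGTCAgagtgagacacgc
Osgin1: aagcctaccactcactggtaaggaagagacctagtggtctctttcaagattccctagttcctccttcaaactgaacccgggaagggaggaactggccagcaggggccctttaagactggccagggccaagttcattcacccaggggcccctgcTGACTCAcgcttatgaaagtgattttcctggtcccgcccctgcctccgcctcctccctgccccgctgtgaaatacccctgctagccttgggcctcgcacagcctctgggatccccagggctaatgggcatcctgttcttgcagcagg
Gclm: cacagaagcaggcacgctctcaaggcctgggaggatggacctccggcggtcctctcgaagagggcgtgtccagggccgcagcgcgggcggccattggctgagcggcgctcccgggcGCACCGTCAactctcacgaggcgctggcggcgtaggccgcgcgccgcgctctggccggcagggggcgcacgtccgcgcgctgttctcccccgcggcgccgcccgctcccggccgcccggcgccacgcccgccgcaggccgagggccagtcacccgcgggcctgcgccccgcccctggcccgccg
Srxn1 held the AP-1 site at -102 to -96 and at -45 to -39 and the response element core at 29 to 37, all on the minus strand, counted from the start site. Osgin1 held 1 AP-1 site at -97 to -91, and Gclm 1 response element core at -134 to -126. Of the 10 genes, 8 had a window in the table used, and Hmox1 and Gclc were not among them. These 8 have 11 windows, since Txnrd1 and Pgd have more than 1. The core was found in 5 of the 11, for Gclm, Srxn1, Txnrd1, G6pdx and Pgd, and in 12.4% of 32851 windows of all genes. The AP-1 site was found in 2 of the 11, for Srxn1 and Osgin1, and in 5.2% of all windows. A match describes the letters of the window only, and known response elements of such genes often lie farther away. Only these letters were searched, so a window without a match can hold a variant of either motif.

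Nqo1, a quinone reductase that is among the most used readouts of NRF2, was high in NEMO/Jnk1 DKO livers. It read 6.94, 6.25 and 6.19 there, 5.02, 5.10 and 5.21 in NEMO/Jnk2 DKO, 7.44, 4.17 and 5.08 in Jnk1 KO, 5.35, 4.69 and 4.73 in Jnk2 KO and 4.48, 4.65 and 5.10 in WT livers. All 3 NEMO/Jnk1 DKO livers lay above all livers of NEMO/Jnk2 DKO, Jnk2 KO and WT, and the highest level of all was that of the doubted Jnk1 KO replicate 1. The difference between NEMO/Jnk1 DKO and WT was 1.72 (SE 0.57, adjusted p = 0.166) as labelled and passed without the doubted arrays (SE 0.26, adjusted p = 0.00137). Against Jnk1 KO it was 0.89 (SE 0.57, adjusted p = 0.962) as labelled and 1.83, or 3.56-fold, without them (SE 0.29, adjusted p = 0.00252). The 3 livers with the highest Nqo1 were the 3 with female Xist levels, and NEMO/Jnk1 DKO replicate 3, with male levels, read 6.19. With the sex term on all 15 arrays the difference of NEMO/Jnk1 DKO from WT was 0.64 (adjusted p = 0.914) and that from Jnk1 KO 0.36 (adjusted p = 1). With the sex term and without the doubted arrays NEMO/Jnk1 DKO rests on replicate 3 alone. The difference was then 1.56 from Jnk1 KO and 1.44 from WT, and neither passed. In NEMO/Jnk2 DKO, Nqo1 differed from WT by 0.37 (95% interval -0.85 to 1.59 as labelled) and overlapped with it.

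Hmox1, haem oxygenase 1, which opens the haem ring to biliverdin, carbon monoxide and iron, was high in both kinds of DKO liver and in Jnk2 KO. Its level was 7.81, 8.46 and 7.73 in NEMO/Jnk1 DKO livers, 7.83, 7.91 and 7.70 in NEMO/Jnk2 DKO, 8.28, 6.33 and 6.58 in Jnk1 KO, 7.29, 8.13 and 7.35 in Jnk2 KO and 6.17, 6.61 and 6.75 in WT livers. Every DKO and every Jnk2 KO liver lay above every WT liver, and among Jnk1 KO only the doubted replicate 1 did. Hmox1 exceeded WT by 1.49 in NEMO/Jnk1 DKO livers and by 1.30 in NEMO/Jnk2 DKO (SE 0.40 each, adjusted p = 0.125 and 0.0976 as labelled). Both differences passed without the doubted arrays (SE 0.23, adjusted p = 0.00143 and 0.00238). The sex term on all 15 arrays brought the first of them to 0.74 (adjusted p = 0.844) and left the second at 1.30 (adjusted p = 0.0236). NEMO/Jnk1 DKO exceeded Jnk1 KO by 0.93 (adjusted p = 0.962) as labelled and by 1.54, or 2.91-fold, without the doubted array (adjusted p = 0.00317). NEMO/Jnk2 DKO differed from Jnk2 KO by 0.10 without it (95% interval -0.45 to 0.65), and those groups overlapped.

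Srxn1 and Txnrd1 serve the thiol systems: sulfiredoxin restores over-oxidised peroxiredoxins, and thioredoxin reductase 1 keeps cytosolic thioredoxin reduced with NADPH. Srxn1 read 7.76, 7.80 and 7.79 in NEMO/Jnk1 DKO livers, 7.58, 7.57 and 7.64 in NEMO/Jnk2 DKO, 8.02, 6.68 and 6.81 in Jnk1 KO, 7.08, 7.46 and 7.42 in Jnk2 KO and 6.87, 6.91 and 6.84 in WT livers. The 6 DKO livers spanned 7.57 to 7.80 and lay above all others but the doubted Jnk1 KO replicate 1, and Jnk2 KO lay between DKO and WT. Relative to WT, Srxn1 was higher by 0.91 in NEMO/Jnk1 DKO livers and by 0.72 in NEMO/Jnk2 DKO (SE 0.25 each, adjusted p = 0.127 and 0.129 as labelled), and both passed without the doubted arrays (SE 0.10, adjusted p = 0.000176 and 0.000426). The difference between NEMO/Jnk1 DKO and Jnk1 KO was 0.61 (adjusted p = 0.962) as labelled and 1.04, or 2.05-fold, without the doubted arrays (SE 0.11, adjusted p = 0.000215). The sex term on all 15 arrays gave 0.49 between NEMO/Jnk1 DKO and WT (adjusted p = 0.847) and 0.40 between NEMO/Jnk1 DKO and Jnk1 KO (adjusted p = 1). Within NEMO/Jnk1 DKO the livers with the female pattern read 7.76 and 7.80 and the other read 7.79. Adding the sex term without the doubted arrays left the difference from Jnk1 KO at 1.04, which rests on NEMO/Jnk1 DKO replicate 3 alone.

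Txnrd1 moved over a smaller range, with levels of 8.66, 8.84 and 8.92 in NEMO/Jnk1 DKO livers, 8.78, 8.95 and 8.75 in NEMO/Jnk2 DKO, 8.93, 8.52 and 8.33 in Jnk1 KO, 8.49, 8.76 and 8.66 in Jnk2 KO and 8.34, 8.43 and 8.30 in WT livers. All DKO and all Jnk2 KO livers were above all WT livers. The difference from WT was 0.45 in NEMO/Jnk1 DKO livers and 0.47 in NEMO/Jnk2 DKO (SE 0.13 each, adjusted p = 0.145 and 0.076 as labelled). Both passed without the doubted arrays (SE 0.11, adjusted p = 0.0193 and 0.0111). Against the matching single knockouts Txnrd1 did not pass. The difference was 0.21 as labelled (adjusted p = 0.962) and 0.38 without the doubted arrays (adjusted p = 0.0895) on the Jnk1-null background, and 0.19 (adjusted p = 0.765) and 0.20 (adjusted p = 0.422) on the Jnk2-null background.

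Gclc and Gclm encode the catalytic and the modifier subunit of glutamate-cysteine ligase, the enzyme that limits the rate of glutathione synthesis. Gclc read 10.06, 10.40 and 10.46 in NEMO/Jnk1 DKO livers, 10.08, 10.34 and 10.21 in NEMO/Jnk2 DKO, 10.35, 10.10 and 9.86 in Jnk1 KO, 10.23, 9.75 and 10.04 in Jnk2 KO and 10.13, 10.20 and 10.13 in WT livers. Gclm read 9.37, 9.52 and 9.77 in NEMO/Jnk1 DKO livers, 9.43, 9.60 and 9.47 in NEMO/Jnk2 DKO, 9.70, 9.62 and 9.55 in Jnk1 KO, 9.44, 9.40 and 9.45 in Jnk2 KO and 9.60, 9.60 and 9.72 in WT livers. The DKO groups overlapped with WT and with their single knockouts for both genes, and neither gene passed in any of the 9 comparisons, as labelled or without the doubted arrays. As labelled, the 95% interval of the difference from WT ran from -0.17 to 0.47 for Gclc and from -0.30 to 0.13 for Gclm in NEMO/Jnk1 DKO. In NEMO/Jnk2 DKO it ran from -0.26 to 0.37 for Gclc and from -0.35 to 0.07 for Gclm. Without the doubted arrays it ran from -0.15 to 0.45 and from -0.31 to 0.14 in NEMO/Jnk1 DKO, and from -0.24 to 0.35 and from -0.36 to 0.09 in NEMO/Jnk2 DKO, for Gclc and Gclm in this order. Gclm was lower in all 3 Jnk2 KO livers than in all WT livers, with a difference of -0.21 (SE 0.10, adjusted p = 0.419).

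Pgd, which encodes 6-phosphogluconate dehydrogenase and yields NADPH in the pentose phosphate pathway, was the gene of the set that passed between DKO livers and WT as labelled. It read 8.90, 8.93 and 8.91 in NEMO/Jnk1 DKO livers, 9.14, 9.02 and 8.97 in NEMO/Jnk2 DKO, 8.59, 8.35 and 8.41 in Jnk1 KO, 8.26, 8.42 and 8.79 in Jnk2 KO and 7.87, 8.05 and 8.27 in WT livers. Every DKO liver lay above every liver of the other 3 groups, the doubted ones included. Pgd rose over WT by 0.85 in NEMO/Jnk1 DKO (1.80-fold, SE 0.13, adjusted p = 0.0382) and by 0.98 in NEMO/Jnk2 DKO (1.97-fold, SE 0.13, adjusted p = 0.00387). The first of these calls was lost with the sex term (0.78, adjusted p = 0.456) and when any 1 of 8 arrays was left out (each NEMO/Jnk1 DKO array, NEMO/Jnk2 DKO replicates 1 and 2, Jnk2 KO replicate 2, WT replicates 1 and 2), with adjusted p between 0.0519 and 0.153. With the doubted arrays out and the sex term in, the difference from WT was 0.85, which rests on NEMO/Jnk1 DKO replicate 3 alone. Over the matching single knockouts Pgd was higher by 0.46 on the Jnk1-null background (adjusted p = 0.962) and by 0.55 on the Jnk2-null background (adjusted p = 0.421). With those arrays left out these were 0.53 (adjusted p = 0.0163) and 0.70 (adjusted p = 0.00316), and both passed.

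Ephx1, the microsomal epoxide hydrolase, and Osgin1, a growth inhibitor named for its induction by oxidative stress, were measured with 1 probe set each. Ephx1 read 11.17, 10.98 and 11.34 in NEMO/Jnk1 DKO livers, 11.12, 11.13 and 10.89 in NEMO/Jnk2 DKO, 11.29, 10.16 and 10.73 in Jnk1 KO, 10.21, 10.21 and 10.95 in Jnk2 KO and 10.72, 10.79 and 10.66 in WT livers. The lowest levels were those of Jnk1 KO replicate 2 and of the 2 Jnk2 KO livers that are not doubted. All DKO livers were above all WT livers, by 0.44 in NEMO/Jnk1 DKO livers and 0.33 in NEMO/Jnk2 DKO, and neither difference passed (adjusted p = 0.391 and 0.524 as labelled, 0.0745 and 0.174 without the doubted arrays). Over the single knockouts, without the doubted arrays, Ephx1 rose by 0.71 on the Jnk1-null background (SE 0.15, adjusted p = 0.0166) and by 0.84 on the Jnk2-null background (SE 0.15, adjusted p = 0.00595). As labelled these were 0.43 (adjusted p = 0.962) and 0.59 (adjusted p = 0.601). The single knockouts themselves differed from WT by -0.275 in Jnk1 KO (adjusted p = 0.976) and by -0.51 in Jnk2 KO (adjusted p = 0.141) without the doubted arrays.

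Osgin1 read 7.89, 8.77 and 9.01 in NEMO/Jnk1 DKO livers, 9.19, 9.27 and 8.23 in NEMO/Jnk2 DKO, 9.13, 8.99 and 8.16 in Jnk1 KO, 6.76, 7.13 and 8.42 in Jnk2 KO and 8.79, 8.37 and 8.88 in WT livers. The 2 Jnk2 KO livers that are not doubted were below all other livers, and the doubted replicate 3 lay among the rest. Against Jnk2 KO, NEMO/Jnk2 DKO was higher by 1.46 (SE 0.42, adjusted p = 0.512) as labelled and by 1.95, or 3.87-fold, without the doubted arrays (SE 0.36, adjusted p = 0.00595). Relative to WT, the difference in Jnk2 KO was -1.25 (SE 0.42, adjusted p = 0.237) as labelled and -1.74 without the doubted array (SE 0.36, adjusted p = 0.0343). In the DKO groups Osgin1 overlapped with WT, with differences of -0.12 in NEMO/Jnk1 DKO livers and 0.21 in NEMO/Jnk2 DKO (SE 0.42 each).

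Between DKO livers and the single knockouts of the same JNK, 0 of 9 genes passed as labelled on either background in limma. Of all genes, 0% passed on the Jnk1-null and 0.00502% on the Jnk2-null background. On each, 3 of 9 had an unadjusted p under 0.05, where 4.55% and 7.91% of all genes did. Without the doubted arrays, which leaves 2 Jnk1 KO and 2 Jnk2 KO livers, 5 of 9 rose on the Jnk1-null background (Nqo1, Hmox1, Srxn1, Ephx1 and Pgd), where 5.18% of all genes passed. On the Jnk2-null background 3 of 9 rose (Osgin1, Ephx1 and Pgd), where 5.85% passed. Leaving out Jnk1 KO replicate 1 alone gave 3 of 9 on the Jnk1-null background (1.32% of all genes), and leaving out Jnk2 KO replicate 3 alone gave 2 of 9 on the Jnk2-null background (0.597%). With the sex term as well, 1 of 9 passed between NEMO/Jnk1 DKO and Jnk1 KO (1.21%) and 2 of 9, Srxn1 and Pgd, between NEMO/Jnk1 DKO and WT (1.31%).

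**Figure D2:**
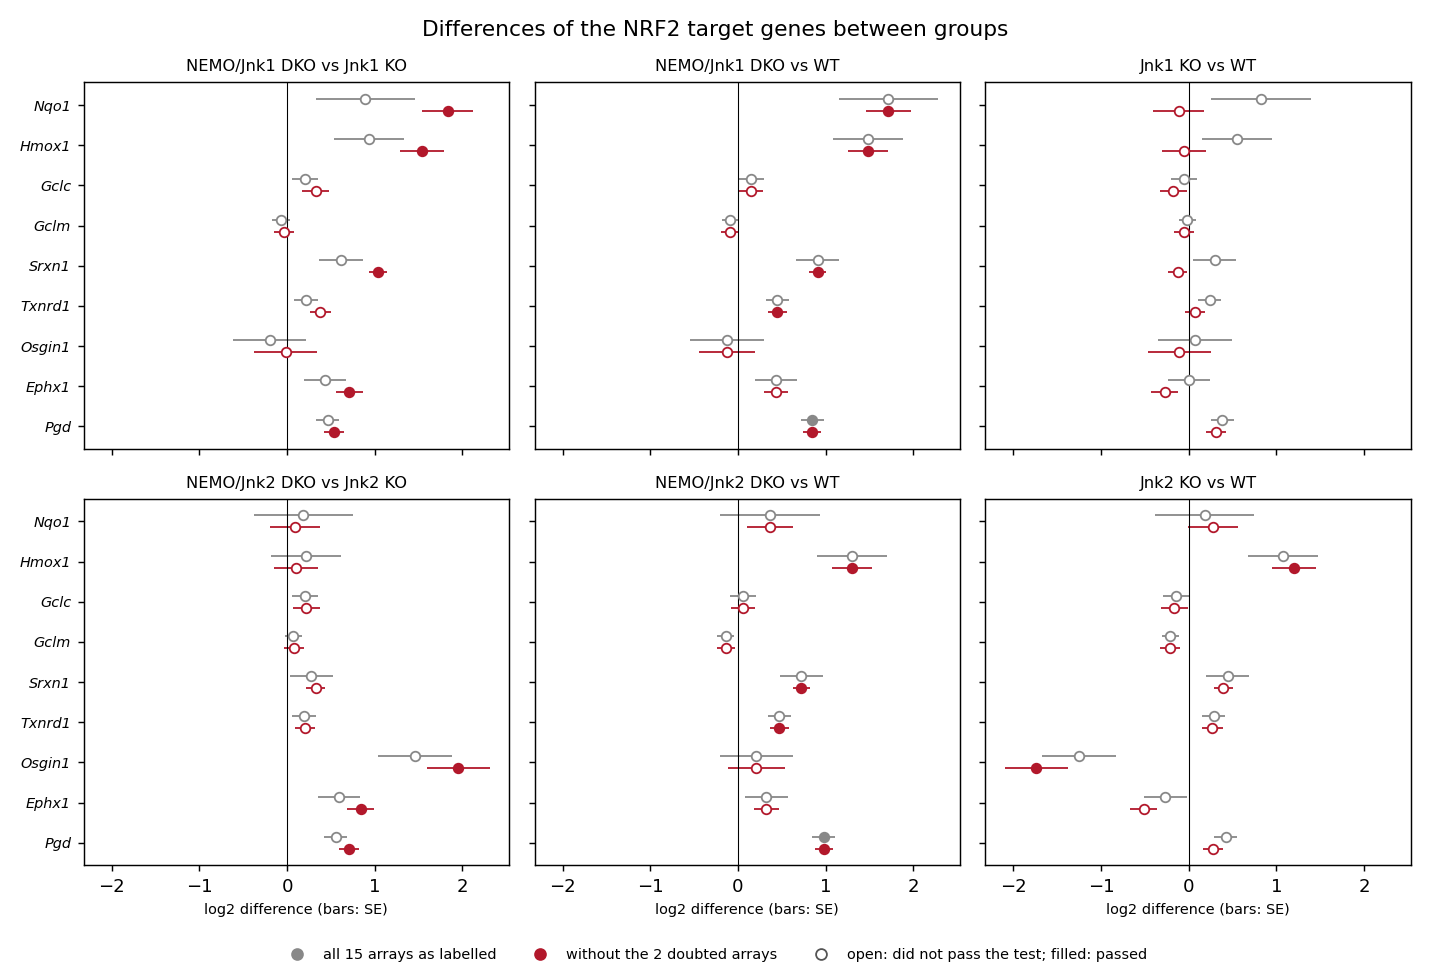
Log2 differences of the 9 NRF2 target genes (horizontal axes) in 6 comparisons, with bars of 1 SE, for all 15 arrays as labelled and without the 2 doubted arrays; filled points passed at an adjusted p under 0.05. Hmox1, Srxn1, Txnrd1 and Pgd are filled against WT in both DKO groups without the doubted arrays, and Gclc and Gclm are unfilled in every panel.

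Whether the NEMO effect differed between the JNK backgrounds was tested as the difference of the 2 differences, DKO less single knockout. As labelled 0 of 9 passed (0% of all genes) and 1 of 9, Osgin1, had an unadjusted p under 0.05 (-1.66, SE 0.60, limma adjusted p = 1), where 2.75% of all genes did. When the doubted arrays were dropped, 0 of 9 passed (0.01% of all genes) and 4 of 9 had an unadjusted p under 0.05 (6.59% of all genes). The 4 were Nqo1 at 1.74 (adjusted p = 0.282), Hmox1 at 1.44 (adjusted p = 0.317), Srxn1 at 0.71 (adjusted p = 0.21) and Osgin1 at -1.97 (adjusted p = 0.33). Between NEMO/Jnk1 DKO and NEMO/Jnk2 DKO directly, 0 of 9 passed either way (0.105% of all genes as labelled, 0.321% without the doubted arrays). Nqo1 alone had an unadjusted p under 0.05, where 5.44% and 7.5% of all genes did. Nqo1 was 1.35 higher in NEMO/Jnk1 DKO, with no overlap of the groups (SE 0.57, limma adjusted p = 0.84 as labelled, and SE 0.26, adjusted p = 0.0515 without the doubted arrays). With the sex term on all 15 arrays it was 0.27 (limma adjusted p = 0.959), and 0 of 9 genes then had an unadjusted p under 0.05 (7.35% of all genes). That term draws also on the doubted Jnk1 KO replicate 1, in which Nqo1 read 7.44. With the term and without the doubted arrays Nqo1 was 1.08 higher, a value that rests on NEMO/Jnk1 DKO replicate 3 alone. Of the 3 NEMO/Jnk1 DKO livers 2 had the female pattern, and the lowest of the 3, which had the male one, read 6.19 against at most 5.21 in NEMO/Jnk2 DKO.

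Few of these genes passed between a single knockout and WT. Between Jnk1 KO and WT, 0 of 9 passed as labelled (0.01% of all genes) or without the doubted array (0.015%). Only 1 of 9, Pgd, had an unadjusted p under 0.05 in limma each time (0.38 as labelled, 0.32 without that array). Of all genes 5.58% and 5.07% did. Between Jnk2 KO and WT, 0 of 9 passed as labelled (0.411% of all genes), with 3 of 9 at an unadjusted p under 0.05 (12.1% of all genes). Without the doubted arrays 2 of 9 passed (1.24%), Hmox1 higher by 1.20 (2.30-fold, SE 0.25, limma adjusted p = 0.038) and Osgin1 at -1.74. Srxn1 (0.39) and Txnrd1 (0.27) were also higher in each of the 2 Jnk2 KO livers than in each WT liver, and did not pass (adjusted p = 0.107 and 0.354). Ephx1 (-0.51) and Gclm (-0.22) were lower in each of the 2 than in each WT liver, and did not pass either (adjusted p = 0.141 and 0.467). In the 2 Jnk1 KO livers that are not doubted, Pgd (0.32) lay above each WT liver, and Gclc (-0.17) and Srxn1 (-0.13) lay below. None of these passed. How many of all genes lay apart in these ways was not counted. Between Jnk1 KO and Jnk2 KO, 0 of 9 passed either way (0.13% of all genes as labelled, 0.597% without the doubted arrays). At an unadjusted p under 0.05 were 1 and 3 of 9, beside 7% and 10.8% of all genes. The comparisons with WT share the 3 WT livers.

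Across the 15 livers the 9 genes did not vary as 1 block. Of 36 pairs, the highest Pearson correlations were those of Hmox1 with Srxn1 (0.93), Srxn1 with Txnrd1 (0.90) and Hmox1 with Txnrd1 (0.87). Gclm was near or below 0 with Hmox1 (-0.26), Pgd (-0.24) and Srxn1 (-0.13), and reached 0.62 with Osgin1. These values describe 15 arrays that share the groups, and carry no test. Among all genes outside the set, those most like the mean of the 9 over the 15 arrays were Sat1 (r = 0.97), Clint1 (0.96), Lilr4b (0.94), Lilrb4a (0.94) and Ugdh (0.93), of which Ugdh is on the list of other NRF2 targets. Closest to Nqo1 were Acot3 (0.93), Tcn2 (0.92) and Cyp2a22 (0.92), and closest to Hmox1 were Gja1, Ccl6 and Stk17b (0.91 to 0.92). For Srxn1 they were Slc16a5, Cttn and Wdr1 (0.96 to 0.97), and for Pgd Tlr13, Fcgr4 and Tnfrsf10b (0.93 to 0.94). Closest to Txnrd1 were Gdap2, Psmd8 and Tubb2a (0.93), to Ephx1 Gpx4, Trappc4 and Akr1a1 (0.92 to 0.94), and to Osgin1 Nceh1, Tnfaip2 and Slc25a39 (0.84 to 0.91). For Gclc they were Fam171b, Mef2a and Spats2 (0.86 to 0.91), and for Gclm Ammecr1l, Rwdd3 and Gpr19 (0.86 to 0.88).

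Of 15 regulators of the pathway, 1 rose and 1 fell in each kind of DKO liver against WT without the doubted arrays, where 7.91% of all genes passed in NEMO/Jnk1 DKO livers and 10.6% in NEMO/Jnk2 DKO. These were Nfe2l2, which encodes NRF2 itself, and Mafg, a small MAF partner. Nfe2l2 read 8.76, 8.74 and 9.23 in NEMO/Jnk1 DKO livers, 8.55, 8.69 and 8.49 in NEMO/Jnk2 DKO, 9.22, 7.96 and 8.09 in Jnk1 KO, 7.77, 7.63 and 8.69 in Jnk2 KO and 7.79, 7.99 and 8.07 in WT livers. All DKO livers lay above all WT livers and above all single-knockout livers but the 2 doubted ones. Nfe2l2 rose over WT by 0.96 in NEMO/Jnk1 DKO (SE 0.13, limma adjusted p = 0.0007) and by 0.63 in NEMO/Jnk2 DKO (SE 0.13, adjusted p = 0.00706) when the doubted arrays were left out. Over Jnk1 KO it rose by 0.89 (adjusted p = 0.00299) and over Jnk2 KO by 0.88 (adjusted p = 0.00343), and as labelled it passed in none of these. Mafg, at 7.10 to 7.29 in DKO livers against 7.71 to 7.76 in WT livers, fell in NEMO/Jnk2 DKO (-0.54, SE 0.10, adjusted p = 0.0199) and in Jnk2 KO (-0.60, SE 0.10, adjusted p = 0.0269) as labelled, and also in NEMO/Jnk1 DKO without the doubted arrays (-0.48, adjusted p = 0.00301). The single knockouts lay below every WT liver too, at 7.04, 7.46 and 7.42 in Jnk1 KO, which did not pass, and at 7.22, 7.07 and 7.11 in Jnk2 KO. Keap1, which holds NRF2, read 6.88 to 7.24 over all 15 livers, and Bach1, a repressor at the same elements that is best known for Hmox1, read 6.81 to 7.36, and neither passed in any comparison, as labelled or without the doubted arrays. NRF2 activity is set largely at the protein level, which was not measured.

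**Figure D3:**
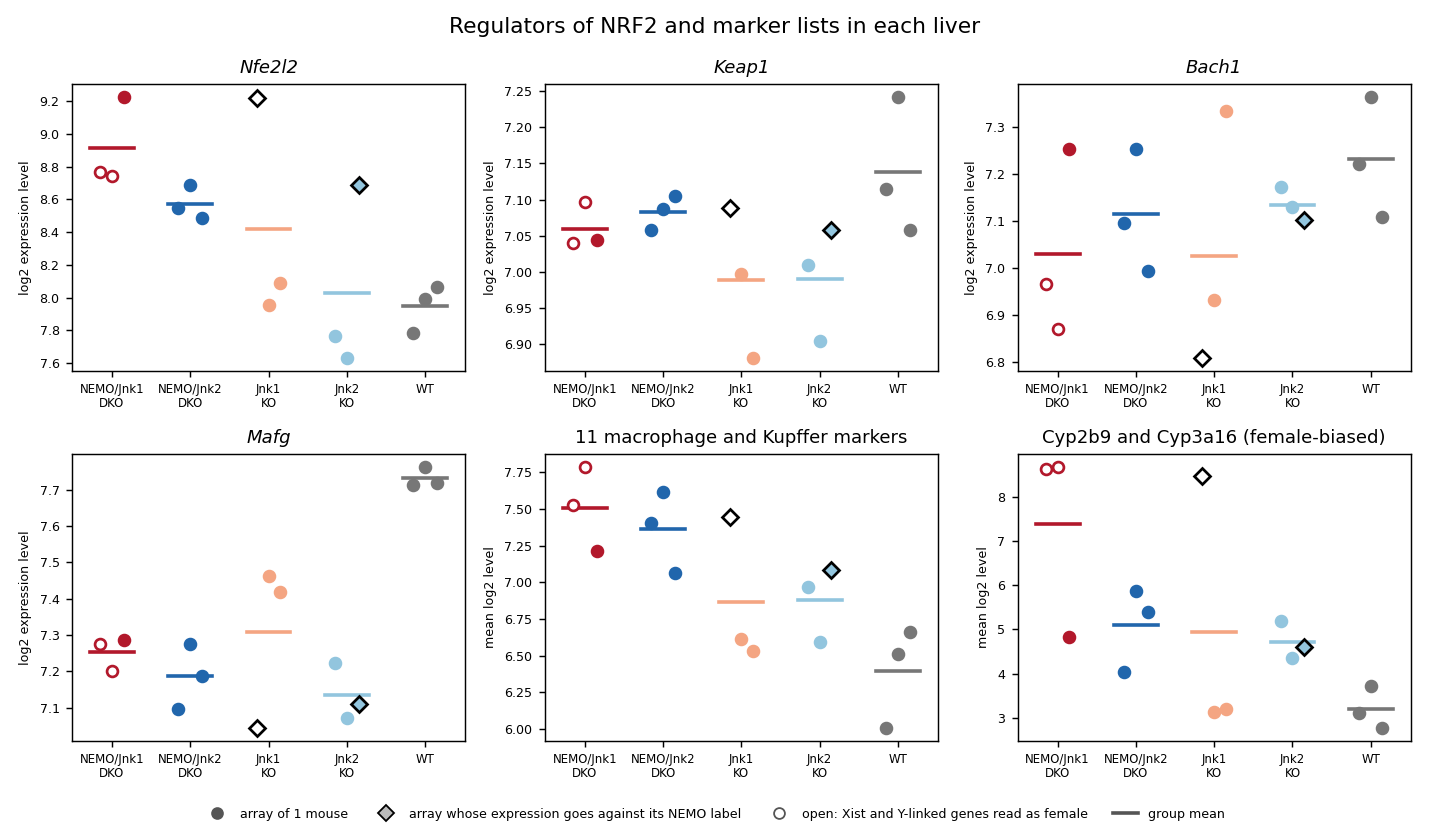
Log2 levels of Nfe2l2, Keap1, Bach1 and Mafg and mean log2 levels of 11 macrophage and Kupffer cell markers and of the female-biased Cyp2b9 and Cyp3a16 (vertical axes, which differ between panels) in each liver, with bars at the group means; diamonds are the doubted arrays and open symbols the female pattern. Nfe2l2 in DKO livers starts at 8.49 and in WT ends at 8.07, and the macrophage markers run from 7.06 to 7.79 in DKO and from 6.00 to 6.66 in WT livers.

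Of a list of 46 other NRF2 targets, 39 were measured. As labelled 0 of 39 passed in the 4 comparisons of DKO livers with WT or with the single knockouts, with 15 of 39 (16.3% of all genes) and 10 of 39 (18.9%) at an unadjusted p under 0.05 in limma in NEMO/Jnk1 DKO and NEMO/Jnk2 DKO against WT. Against Jnk1 KO these were 8 of 39 (4.55%) and against Jnk2 KO 9 of 39 (7.91%). Without the doubted arrays, 9 rose and 2 fell in NEMO/Jnk1 DKO against WT (7.91% of all genes passed), and 6 rose and 1 fell in NEMO/Jnk2 DKO against WT (10.6%). Against Jnk1 KO 9 rose and 1 fell (5.18%), and against Jnk2 KO 8 rose and 0 fell (5.85%). The medians of the 39 were 0.21, 0.07, 0.29 and 0.24 in this order, beside medians of all genes between -0.04 and -0.01. Gstm3, a mu-class glutathione transferase, rose most in each, by 1.33 and 1.18 over WT and by 1.53 and 1.75 over the single knockouts. It read 12.20, 11.53 and 12.46 in NEMO/Jnk1 DKO livers and 12.09, 12.23 and 11.42 in NEMO/Jnk2 DKO, against 10.33, 10.84 and 11.03 in WT livers, and the transferases of this family can share probes. Ptgr1, prostaglandin reductase 1, rose by 1.10 and 1.01 over WT (SE 0.14, adjusted p = 0.000426 and 0.000429). Gss, glutathione synthetase, the step after glutamate-cysteine ligase, rose over WT by 0.68 in NEMO/Jnk1 DKO (SE 0.13, adjusted p = 0.00734) and by 0.86 in NEMO/Jnk2 DKO (SE 0.13, adjusted p = 0.0012), and by 0.88 over Jnk1 KO in NEMO/Jnk1 DKO (SE 0.15, adjusted p = 0.00375). Gstp1, a pi-class transferase, fell in NEMO/Jnk1 DKO (-0.96 against WT, adjusted p = 0.0195), where the 2 livers with the female pattern read 11.21 and 11.50 and the third read 12.41, against 12.56 to 12.75 in WT livers. In Jnk1 KO and Jnk2 KO against WT 0 of 39 passed without the doubted arrays (0.015% and 1.24% of all genes). At an unadjusted p under 0.05 were 1 and 10 of 39, beside 5.07% and 12.9% of all genes.

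**Figure D4:**
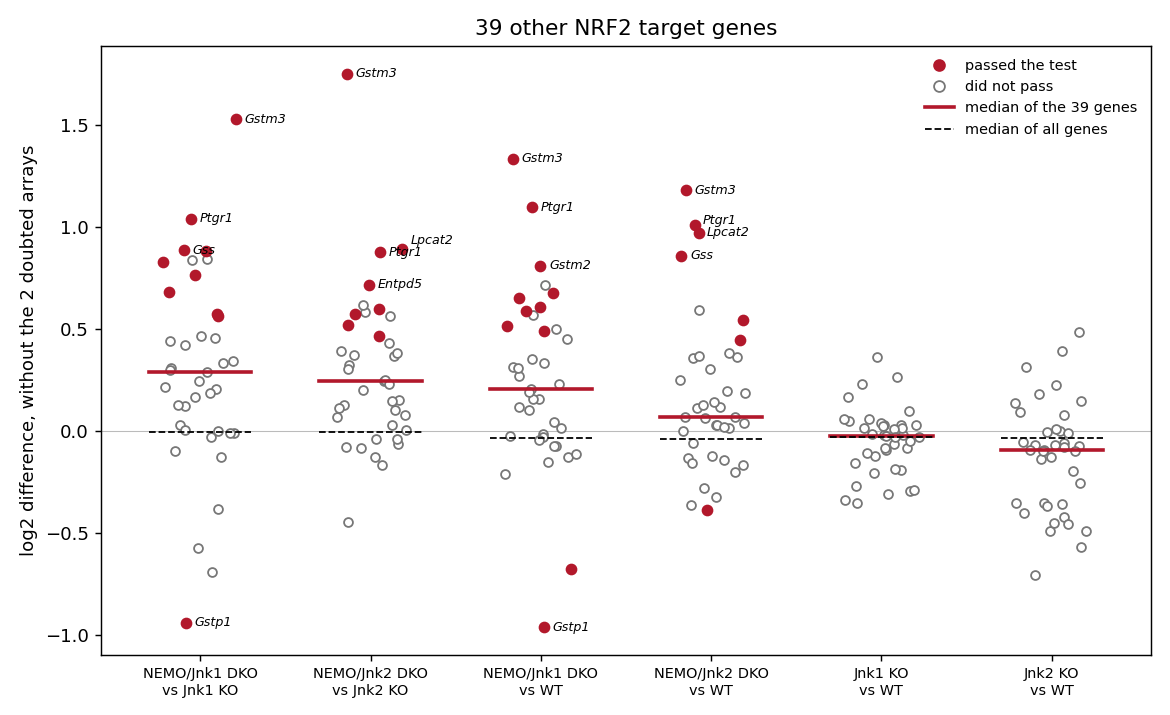
Log2 differences of the 39 other NRF2 target genes (vertical axis) in 6 comparisons without the 2 doubted arrays. Filled points passed at an adjusted p under 0.05, up to 4 of them per comparison are named, and bars mark the median of the 39 genes and dashes that of all genes; Gstm3 lies highest in the 4 comparisons with DKO livers, at 1.18 to 1.75.

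Of 8 other genes of the pentose phosphate pathway, which include Tkt and Taldo1 from the list above, 0 passed in any comparison with WT or with a single knockout. At most 2 of 8 had an unadjusted p under 0.05 in limma. Of all genes 4.55% to 22.7% did, as labelled or without the doubted arrays. Without the doubted arrays, the differences with the lowest p in the comparisons of DKO livers with WT included 0.19 for Tkt, a transketolase, between NEMO/Jnk1 DKO and WT (adjusted p = 0.264), and -0.23 for Pgls, the enzyme just before Pgd, between NEMO/Jnk2 DKO and WT (adjusted p = 0.151). In Jnk2 KO against WT, H6pd, which runs the first steps of the pathway in the endoplasmic reticulum, was at 0.54 (adjusted p = 0.194), beside 0.27 for Pgd. Of 14 measured genes of haem and iron handling, Cd163, the macrophage receptor for haemoglobin bound to haptoglobin, fell without the doubted arrays, with differences of -1.35 in NEMO/Jnk1 DKO livers and -2.08 in NEMO/Jnk2 DKO against WT (adjusted p = 0.00131 and 5.06e-05, and 0.369 and 0.129 as labelled). It read 5.17, 5.17 and 4.80 in NEMO/Jnk1 DKO livers and 3.99, 4.59 and 4.35 in NEMO/Jnk2 DKO, against 5.95, 6.58 and 6.65 in WT livers, and so went the opposite way to Hmox1. Spic, a transcription factor of macrophages that recycle iron, rose in NEMO/Jnk2 DKO over WT also as labelled (0.80, SE 0.19, adjusted p = 0.0428). Hp, haptoglobin, fell in NEMO/Jnk1 DKO (-0.52, adjusted p = 0.0262), and Slc48a1, a haem transporter, rose in NEMO/Jnk2 DKO over Jnk2 KO (0.47, adjusted p = 0.0497), both without the doubted arrays (adjusted p = 0.142 and 0.569 as labelled).

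Other antioxidant enzymes went both ways. Of 21 measured, 2 rose and 3 fell in NEMO/Jnk1 DKO against WT without the doubted arrays, where 981 of all genes rose and 597 fell (7.91%). In NEMO/Jnk2 DKO against WT 1 rose and 5 fell, where 1147 of all genes rose and 969 fell (10.6%). Gpx7, a peroxidase of the endoplasmic reticulum, rose in both (0.55 and 0.44, adjusted p = 0.00346 and 0.00939), and Txnrd3, a thioredoxin reductase best known from testis, fell in both (-0.58 and -0.72, adjusted p = 0.0493 and 0.0143). Mitochondrial Txnrd2 fell as well (-0.43 and -0.41, adjusted p = 0.046 and 0.0465). As labelled neither passed (adjusted p between 0.0536 and 0.189). As labelled, Gpx7 (0.44, adjusted p = 0.0379) and Msrb1, a methionine sulfoxide reductase (-0.38, adjusted p = 0.0499), passed in NEMO/Jnk2 DKO against WT.

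Markers of macrophages were high in the same livers. All 11 macrophage and Kupffer cell markers were measured, and their mean level was 7.21 to 7.79 in NEMO/Jnk1 DKO, 7.06 to 7.62 in NEMO/Jnk2 DKO, 6.53 to 7.44 in Jnk1 KO, 6.59 to 7.08 in Jnk2 KO and 6.00 to 6.66 in WT livers. Of these, 8 rose in NEMO/Jnk1 DKO livers and 7 in NEMO/Jnk2 DKO against WT without the doubted arrays (1 as labelled, Adgre1 in NEMO/Jnk2 DKO), where 7.91% and 10.6% of all genes passed, among them Cd68 by 1.73 and 1.63 (adjusted p = 6.84e-05 and 6.18e-05). Stellate cell markers averaged 7.48 to 7.66 in NEMO/Jnk1 DKO livers and 7.26 to 7.55 in NEMO/Jnk2 DKO, against 6.29 to 6.44 in WT livers, and cycling markers averaged 5.66 to 5.85, 5.28 to 6.32 and 4.02 to 4.46 in the same order. The 7 measured hepatocyte markers averaged 12.28 to 12.38 in NEMO/Jnk1 DKO livers and 12.13 to 12.20 in NEMO/Jnk2 DKO, against 12.35 to 12.50 in WT livers, with 2 called lower in NEMO/Jnk2 DKO without the doubted arrays. Neutrophil markers averaged 3.17 to 3.36 and 3.31 to 3.67, against 3.05 to 3.20 in WT livers, and 2 of 5 rose in NEMO/Jnk2 DKO without the doubted arrays. All these averages lie below 3.69, the level of the filter on low values. Markers of T cells (3.99 to 4.46 against 3.76 to 3.89 in WT livers) and of cholangiocytes and progenitors (4.25 to 4.35 against 3.89 to 4.21) also lay apart from WT in NEMO/Jnk2 DKO, and endothelial markers (7.12 to 7.16 against 6.67 to 6.96) in NEMO/Jnk1 DKO. The T cell averages in WT livers lie just above the filter level. Without the doubted arrays 1 of 4 T cell and 0 of 7 cholangiocyte and progenitor markers rose in NEMO/Jnk2 DKO against WT. The part of these cells in the levels of Hmox1, Srxn1, Pgd and the other members was not tested. The female-biased Cyp2b9 and Cyp3a16 averaged 8.47 to 8.68 in the 3 livers with female Xist levels, 4.04 to 5.87 in NEMO/Jnk2 DKO and 2.76 to 3.72 in WT livers, and NEMO/Jnk1 DKO replicate 3 read 4.83.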

How the data were processed

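RNA from 15 livers was measured on 1 Affymetrix array each. The submitters' processing notes name RMA, without a version, and the values the authors deposited are taken as log2 levels because of their range; the notes do not name the base. Probe sets were joined to symbols through the platform's gene table: of 35556, 21789 had 1 symbol, 1621 several and 12146 were not listed. The probe set with the highest mean stood for each of the 999 genes with more than 1. Array medians lay between 4.26 and 4.38, no 2 arrays were identical, and the labels give each mouse its own number.

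Groups were compared with limma 3.58.1 (R 4.3.3), fitting all 15 arrays by lmFit with a mean for every group and moderating by eBayes (10 residual and 3.75 prior degrees of freedom, or 8 and 5.05 without the doubted arrays), with Benjamini-Hochberg adjustment over 19938 genes. The fit was also run on simulated arrays with known changes. These held no array at odds with its label and no sex pattern, so that run does not bear on the doubted arrays or the sex term. The members, gene lists and doubted arrays were chosen with earlier results of these data known. Named are the members, Mapk8, Mapk9, Ikbkg and Ly6d, Nfe2l2, Keap1 and Bach1, up to 4 called genes with the largest change per list and comparison or the 2 with the lowest p, and the genes most alike in pattern. Ly6d, Cd68 and the female-biased genes were named after their values were seen. Deviations of same-numbered arrays from their group means correlated between -0.395 and 0.304, and the numbers were not used to pair samples in the main fit. With 3 arrays in a group, these values cannot show whether same-numbered mice shared a litter or batch. Motifs and figures used Python 3.11.15 and matplotlib 3.10.9. The number of arrays limits the precision.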

Additional observations from a re-analysis of the deposited data

How the results depend on the processing

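Counts of called genes among the 9, and the share of all genes called, moved with the arrays and terms in the fit. In NEMO/Jnk1 DKO against WT, 1 call as labelled (0.0652% of all genes) became 5 with only the arrays compared (6.49%). It became 5 without the 2 doubted arrays (7.91%) and 0 with the sex term alone (0.015%). The replicate block also left 0 there and changed no other count of member calls. In NEMO/Jnk2 DKO against WT, 1 (2.63% of all genes) became 4 with only the arrays compared (9.62%) and 4 without the doubted arrays (10.6%). It became 4 with the sex term as well (2095 of all genes), 3 with the sex term alone (5.19%) and 2 after quantile normalization again. Without the doubted arrays the count was 5 against Jnk1 KO (5.18% of all genes) and 3 against Jnk2 KO (5.85%) in the matching DKO livers. In Jnk2 KO against WT it was 2 (1.24%). With the sex term as well the last 2 of these stayed at 3 and 2. Leaving out each array in turn gave 0 to 3 calls in NEMO/Jnk1 DKO against Jnk1 KO, 0 to 2 in NEMO/Jnk2 DKO against Jnk2 KO, 0 to 5 in NEMO/Jnk1 DKO against WT, 1 to 4 in NEMO/Jnk2 DKO against WT, 0 to 2 in Jnk2 KO against WT and 0 to 1 in Jnk1 KO against Jnk2 KO. The highest count came without Jnk1 KO replicate 1 in all of these but NEMO/Jnk2 DKO against Jnk2 KO, where it came without Jnk2 KO replicate 3. Without Jnk1 KO replicate 1, 1.32% of all genes passed in NEMO/Jnk1 DKO against Jnk1 KO, 4.34% against WT, and 7.36% in NEMO/Jnk2 DKO against WT. In Jnk2 KO against WT 1.07% then passed, and 0.346% in Jnk1 KO against Jnk2 KO. Without Jnk2 KO replicate 3, 0.597% passed in NEMO/Jnk2 DKO against Jnk2 KO. The cause of these shifts was not tested. Of the differences of single members under all settings, 52 newly passed, 10 (all Pgd in NEMO/Jnk1 DKO against WT) no longer passed, 79 that passed in neither setting changed sign, 1803 did neither, and 0 called values changed sign. Of the 39 other NRF2 targets 0 passed as labelled. With only the arrays compared, 9 passed against WT in each kind of DKO liver (6.49% and 9.62% of all genes). Adding the sex term without the doubted arrays gave 6 calls beside 8 in NEMO/Jnk2 DKO against Jnk2 KO (1148 beside 1167 of all genes). In NEMO/Jnk2 DKO against WT it gave 8 beside 7 (2095 beside 2116 of all genes). Over all genes in NEMO/Jnk2 DKO against WT, 174 rose and 351 fell as labelled, 200 and 256 after quantile normalization again. Each member had 1 probe set, so no other probe set could be tried.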
